A study of Mus musculus with 24 samples.

Results

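The genes that make, sense, take up, store and export cholesterol were followed in mouse retina after blast-mediated traumatic brain injury (bTBI). The group holds 35 genes listed by symbol for their known role in sterol metabolism. The list was made with earlier results of these data known, so no test over the list was made. All 35 were measured at both timepoints, among 14922 genes at 1 week and 15920 genes at 5 weeks. They divide into 19 genes of synthesis, 7 of sensing, 4 of uptake and transport and 5 of storage, turnover and efflux. Not every enzyme and receptor of the pathway is among them, and 3 lists of neighbouring genes are given after the members.

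Cells build cholesterol from acetyl-CoA by way of mevalonate, isoprenoid units, squalene and lanosterol. When sterol in the endoplasmic reticulum runs low, the escort protein SCAP carries the transcription factor SREBP2 to the Golgi for cleavage, and SREBP2 then switches on the enzymes of synthesis, whereas INSIG proteins hold SCAP back when sterol is plentiful. Surplus sterol is sensed by the LXR nuclear receptors, which switch on the exporters ABCA1 and ABCG1 and the lipid carrier apolipoprotein E. In the nervous system glia are a main source of apolipoprotein E, and neurons clear cholesterol by hydroxylating it with CYP46A1.

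RNA was sequenced from 24 retinas of male C57BL/6J mice, 6 from bTBI mice and 6 from sham mice at 1 week (8 days in the sample labels), and 6 from bTBI mice and 6 from sham mice at 5 weeks. The bTBI mice met a blast wave in an enclosed chamber, the sham mice were handled likewise without the blast, and the eye that faced the blast was used. Both groups were adult, wild type and kept under the same light cycle. The labels name the cell type as retinal ganglion cell (RGC), but the tissue is whole retina, and markers of rods summed to between 32653 and 37987 CPM in bTBI retinas at 1 week, against 861 to 1422 CPM for RGC markers in the same retinas. RNA was extracted with a different kit at each timepoint, so kit and timepoint cannot be told apart, and each bTBI group was compared only with the sham group of its own timepoint. Nothing in the labels pairs the retinas or says that 2 of them share a mouse.

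Values are read counts per gene divided by an effective library size and scaled to CPM. The depth that the steps between values imply was 14301989 to 25158638 reads per retina. Differences are given as log2 fold changes of CPM + 1, bTBI minus sham, from the moderated test of limma, with p adjusted by the Benjamini-Hochberg method over every gene of the table. A gene was called at an adjusted p under 0.005, the threshold of the study, and a second threshold of 0.05 is given beside it. In bulk tissue, fewer cells of a type and less RNA per cell cannot be told apart.

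Several cell populations differed between the groups in these same libraries. Of 10 RGC markers, 9 at 1 week and 10 at 5 weeks were lower in bTBI at an adjusted p under 0.005, and their sum was 861 to 1422 CPM in bTBI against 1592 to 1914 CPM in sham at 1 week, and 486 to 743 CPM in bTBI against 895 to 985 CPM in sham at 5 weeks. At 1 week 8 of 10 microglial markers (summed 234 to 628 CPM in bTBI, 138 to 216 CPM in sham) and 4 of 6 reactive macroglial markers (437 to 1276 CPM in bTBI, 262 to 456 CPM in sham) were higher at that threshold. The 8 Müller glia markers, of which 1 is the member Apoe, summed to 7897 to 8743 CPM in bTBI and 7636 to 9124 CPM in sham at 1 week, where 1 was higher at that threshold, and 2 were higher and 1 lower at an adjusted p under 0.05 (median log2 fold change 0.16). At 1 week bTBI replicate 3 stood apart for oligodendrocyte markers, 2 of 5 measured (3342 CPM, with 165 CPM in bTBI replicate 4, at most 42.1 CPM in the other bTBI retinas and at most 43.3 CPM in sham), and bTBI replicates 5 and 6 for lens markers, 8 of 9 measured (up to 5890 CPM in bTBI, at most 551 CPM in sham).

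At 1 week the synthesis genes leaned low in bTBI retinas and the remaining genes did not share that lean. Of the 19 synthesis genes 17 had a log2 fold change below 0, with a median of -0.19 and a range of -0.42 to 0.02. The other 16 genes had 7 values below 0 and 9 above it, with a median of 0.01 and a range of -0.34 to 0.27. The median over all 14922 genes was 0.00. No member passed the adjusted p of 0.005 in limma (0 of 35, where 2.25% of all genes passed). At an unadjusted p under 0.05, 14 members were lower (40.0%, where 8.93% of all genes were). Only 1 of the 35, Apoe, was higher, where 8.32% of all genes were. At an adjusted p under 0.05, 6 of the 35 (17.1%) were lower, where 3.06% of all genes were, and 0 were higher, where 3.02% of all genes were. The 6 were the synthesis genes Idi1, Fdft1, Tm7sf2 and Acat2, the sterol sensor Insig1 and the cholesterol hydroxylase Cyp46a1.

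**Figure D1:**
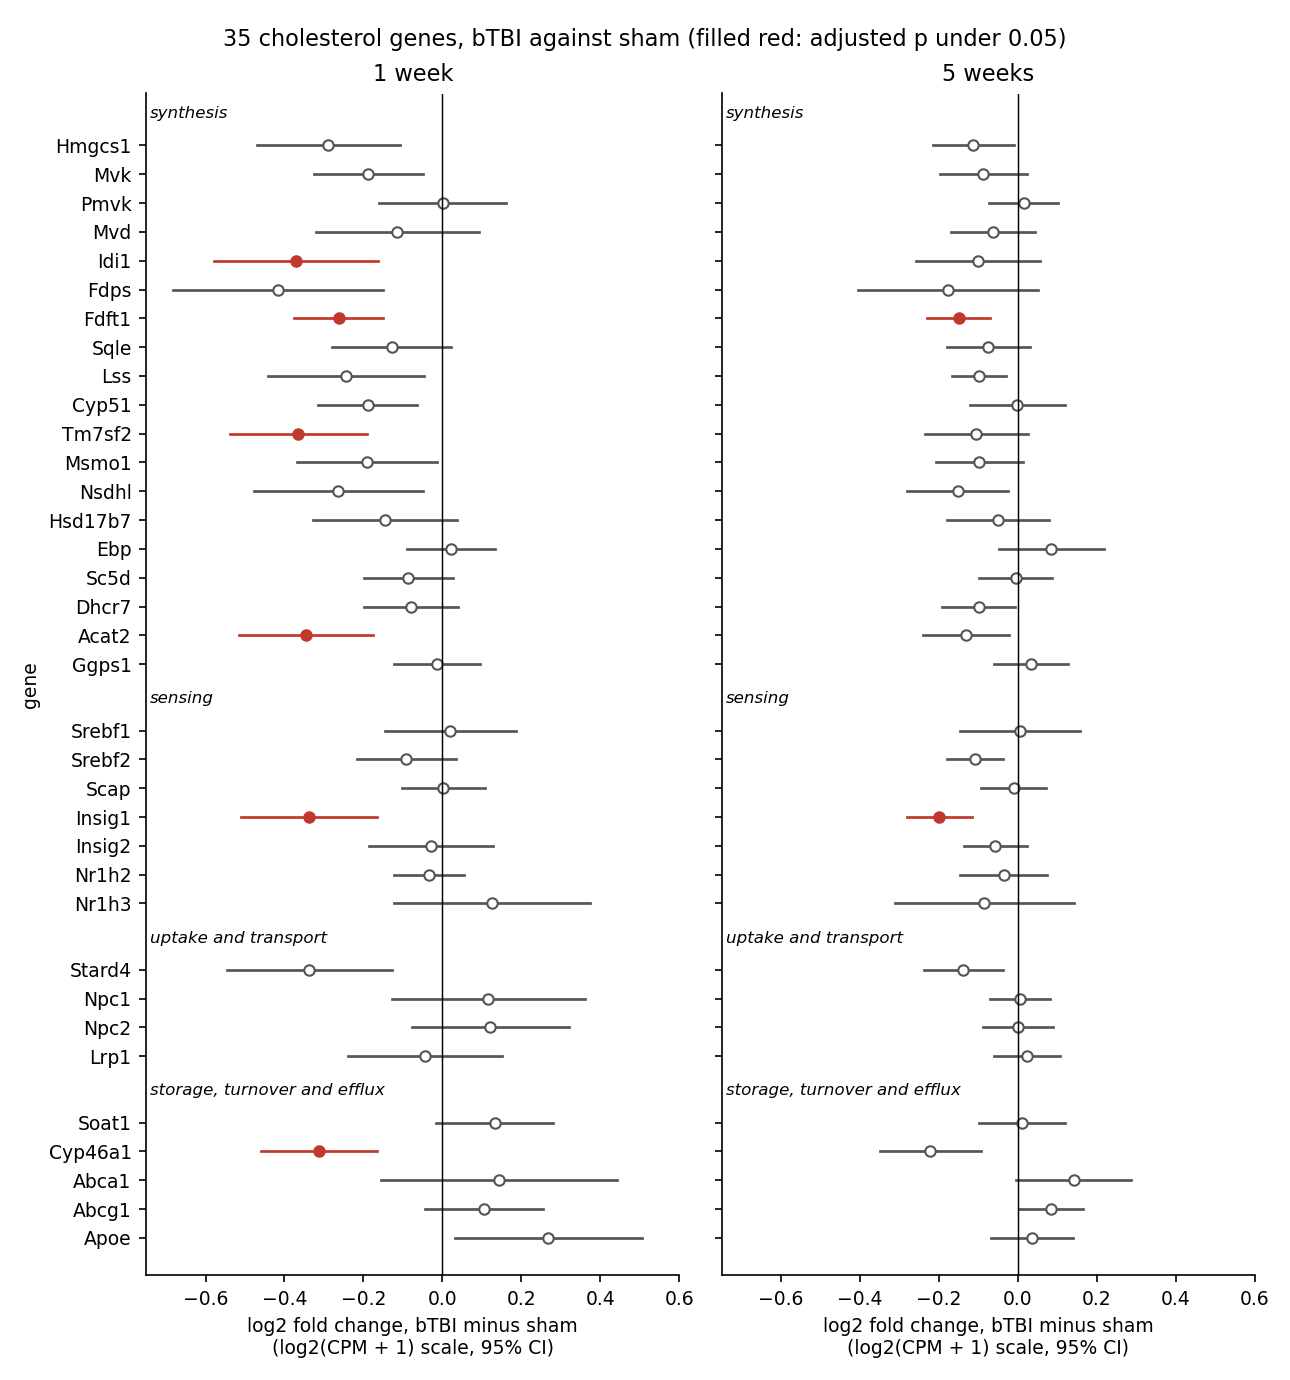
Log2 fold change (bTBI minus sham, on the log2(CPM + 1) scale) of the 35 genes at 1 week (left) and 5 weeks (right), by role, with bars for the 95% confidence interval of the limma fit and 6 retinas per group. Red filled points have an adjusted p under 0.05: 6 genes at 1 week and 2 at 5 weeks, each of them below 0.

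Averaged per retina, the 19 synthesis genes lay lower in bTBI than in sham with a slight overlap. Their mean log2(CPM + 1) was 4.82 to 4.98 (median 4.87) in bTBI and 4.96 to 5.17 (median 5.06) in sham at 1 week. The highest bTBI retina thus passed the lowest sham retina. At 5 weeks the mean was 5.06 to 5.19 (median 5.12) in bTBI and 5.18 to 5.22 (median 5.20) in sham. The 16 sensing, uptake and efflux genes averaged 6.16 to 6.30 (median 6.28) in bTBI and 6.24 to 6.32 (median 6.26) in sham at 1 week, with 2 of 6 bTBI retinas below every sham retina. At 5 weeks they averaged 6.18 to 6.29 (median 6.21) in bTBI and 6.24 to 6.28 (median 6.25) in sham. Here 5 of 6 bTBI retinas lay below every sham retina and replicate 1 lay above them all, and for the synthesis mean 5 of 6 bTBI retinas lay below every sham retina at each timepoint. The synthesis mean minus the mean of the other genes in the same retina was -1.46 to -1.28 (median -1.39) in bTBI and -1.29 to -1.09 (median -1.20) in sham at 1 week. At 5 weeks it was -1.23 to -1.03 (median -1.08) in bTBI and -1.11 to -1.03 (median -1.05) in sham, so that the contrast between the sets of genes was slight at the later timepoint.

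**Figure D2:**
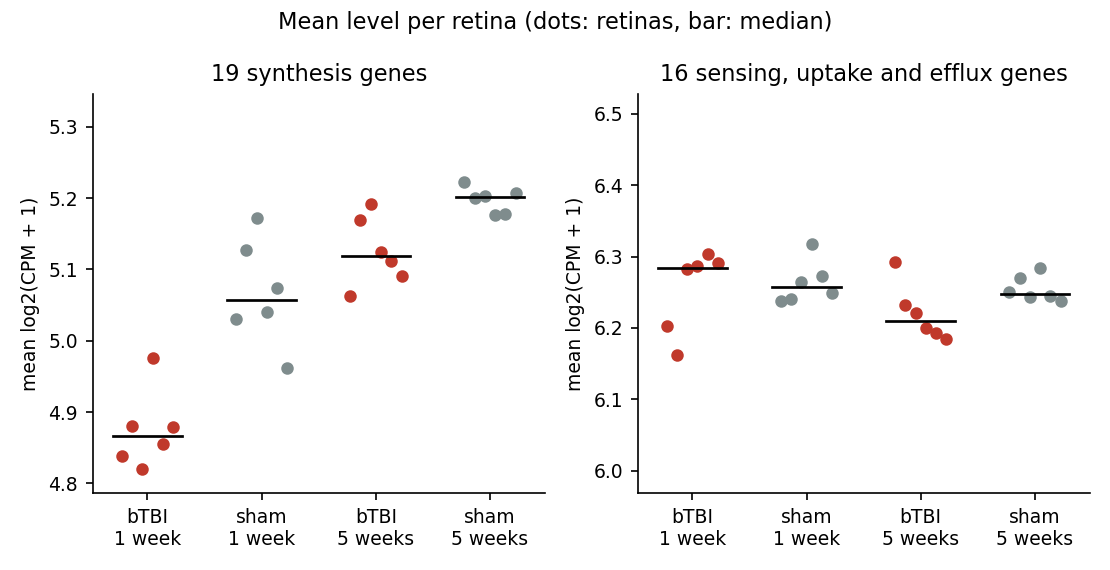
Mean log2(CPM + 1) of the 19 synthesis genes (left) and of the 16 sensing, uptake and efflux genes (right) in each retina, with dots for the 6 retinas of a group and a bar for their median. The synthesis mean is 4.82 to 4.98 in bTBI and 4.96 to 5.17 in sham at 1 week, and the mean of the other genes at 5 weeks is 6.18 to 6.29 in bTBI, with 5 of 6 retinas below every sham retina, and 6.24 to 6.28 in sham.

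The first step of the route is the joining of acetyl-CoA units. Acat2, the cytosolic thiolase that makes acetoacetyl-CoA (chr17:12942890-12960747 of GRCm38), had 19.1 to 24.03 CPM (median 22.7) in bTBI at 1 week, against 23.0 to 31.5 CPM (median 28.3) in sham. Of the 6 bTBI retinas 4 lay below every sham retina. The log2 fold change was -0.35 ± 0.08 (SE), adjusted p = 0.0154. At 5 weeks Acat2 had 23.0 to 27.3 CPM (median 24.2) in bTBI and 25.8 to 29.3 CPM (median 27.2) in sham, and the difference of -0.13 on the log2 scale missed both thresholds (adjusted p = 0.316). Hmgcs1, the synthase that makes HMG-CoA, had 76.0 to 112 CPM (median 97.9) in bTBI and 104 to 134 CPM (median 117) in sham at 1 week, where 5 of 6 bTBI retinas lay below all sham retinas and the adjusted p was 0.0594.

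Next come the kinases and the decarboxylase that turn mevalonate into an isoprenoid unit. For Mvk, the mevalonate kinase, the log2 difference at 1 week was -0.19 (adjusted p = 0.121). Mvd, the decarboxylase, had -0.11 (adjusted p = 0.641), and Pmvk, the phosphomevalonate kinase between them, had 0.00 (adjusted p = 0.998). Along this stretch of the pathway no gene passed a threshold at either timepoint, and the mean of Pmvk in bTBI was 101% of that in sham at both.

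Idi1, the isomerase that interconverts the isoprenoid units (chr13:8885501-8892451), had 13.7 to 19.4 CPM (median 15.4) in bTBI at 1 week and 16.7 to 23.7 CPM (median 21.2) in sham. It averaged 76.2% of sham, and 4 of 6 bTBI retinas lay below every sham retina. Its log2 fold change of -0.37 ± 0.10 (SE) had an adjusted p of 0.0335. At 5 weeks the groups lay close together, with 18.1 to 23.6 CPM (median 20.2) in bTBI and 19.4 to 26.9 CPM (median 21.8) in sham and a difference of -0.10 on the log2 scale (adjusted p = 0.717). At 1 week the adjusted p was no longer under 0.05, and was up to 0.0873, in 8 of 12 fits that left out a single retina. These were bTBI replicates 1, 3, 5 and 6 and sham replicates 1, 2, 3 and 5.

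Fdps, the synthase that joins isoprenoid units to farnesyl diphosphate (chr3:89093588-89101959), was the lowest member. It had 0.767 to 1.22 CPM (median 1.04) in bTBI and 1.22 to 2.69 CPM (median 1.65) in sham at 1 week. Here the ranges came close without overlapping, and the log2 fold change of -0.42 ± 0.13 (SE) missed both thresholds (adjusted p = 0.0639). The mean CPM of Fdps in bTBI was 58.9% of that in sham, and adding 1 to such low CPM shrinks the log2 fold change. At 5 weeks it had 2.28 to 3.89 CPM (median 2.84) in bTBI and 2.62 to 4.16 CPM (median 3.39) in sham, which overlapped. Of its longest coding transcript 91.4% is found at 97% identity or more in 2 other annotated genes (Gm43738 and Gm3571), so reads of Fdps may be assigned to a copy or left uncounted and its level is uncertain. Ggps1, a neighbouring branch enzyme that makes geranylgeranyl diphosphate for protein prenylation rather than sterol, differed by -0.01 at 1 week and 0.03 at 5 weeks on the log2 scale.

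Fdft1, the squalene synthase that commits farnesyl units to sterol (chr14:63145150-63179578), was lower in bTBI at both timepoints at the threshold of 0.05. At 1 week it had 112 to 134 CPM (median 117) in bTBI and 130 to 152 CPM (median 142) in sham. All but 1 of the bTBI retinas lay below the sham range, and the log2 fold change was -0.26 ± 0.05 (SE), adjusted p = 0.00635. At 5 weeks it had 79.4 to 90.9 CPM (median 87.3) in bTBI and 91.5 to 99.9 CPM (median 96.5) in sham, so that no bTBI retina reached the sham range. That difference was -0.15 ± 0.04 (SE), adjusted p = 0.0412, and it was lost (adjusted p up to 0.122) in 8 of 12 fits without a single retina, namely bTBI replicates 1, 2, 3 and 6 and sham replicates 1, 2, 3 and 4. Other annotated genes (Gm6781 and Ctsb) hold 54.7% of the longest Fdft1 transcript, and 65.6% of that of Acat2 lies in Acat3 and Tcp1. For Idi1 the share is 33.3% (Gm13502, Gm35570 and Gm48574) and for Ggps1 27.3% (Gm5630 and Arid4b). Reads from such stretches may be assigned to another gene or left uncounted, so the levels of these members are uncertain. The strand setting of the counting is also not given in the sources used here.

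Squalene is then oxidised, folded into lanosterol and trimmed to cholesterol. For Sqle, the squalene epoxidase, the log2 difference at 1 week was -0.13 (adjusted p = 0.388). Lss, the lanosterol synthase (chr10:76531588-76557138), had 36.3 to 49.5 CPM (median 40.8) in bTBI and 39.6 to 59.1 CPM (median 49.4) in sham at 1 week, which overlapped. At 5 weeks Lss had 70.9 to 76.0 CPM (median 73.9) in bTBI and 77.4 to 81.6 CPM (median 78.3) in sham. The later ranges did not overlap, yet the difference was small (93.3% of sham, log2 fold change -0.10 ± 0.03, SE) and missed both thresholds (adjusted p = 0.177).

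Tm7sf2, a sterol reductase that acts after lanosterol is demethylated (chr19:6062821-6068373), was set apart at 1 week. It had 4.86 to 6.30 CPM (median 5.48) in bTBI and 6.31 to 7.95 CPM (median 7.51) in sham, ranges that touched without overlapping. The log2 fold change was -0.36 ± 0.08 (SE), adjusted p = 0.0132, and every single-retina omission kept it under 0.05. At 5 weeks, with 28.0 to 36.6 CPM (median 30.9) in bTBI and 29.0 to 37.1 CPM (median 34.1) in sham, the groups overlapped and the log2 fold change was -0.11 (adjusted p = 0.599). The sham level of Tm7sf2 also differed widely between the timepoints, which is confounded with the RNA kit.

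Among the remaining enzymes of the late route, Cyp51, the lanosterol demethylase, had -0.19 (adjusted p = 0.0753) at 1 week, Msmo1, the methylsterol oxidase, had -0.19 (adjusted p = 0.246), and Nsdhl, the sterol dehydrogenase that works beside it, had -0.26 (adjusted p = 0.165). Hsd17b7, a ketosteroid reductase, had -0.15, Sc5d, a desaturase, had -0.09, and Dhcr7, the reductase of the closing step, had -0.08, each with an adjusted p above 0.05. Ebp, the sterol isomerase, was the exception with 0.02 at 1 week and 0.08 at 5 weeks, on the other side of 0 from nearly all of its pathway (adjusted p = 0.893 at 1 week and 0.719 at 5 weeks).

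**Figure D3:**
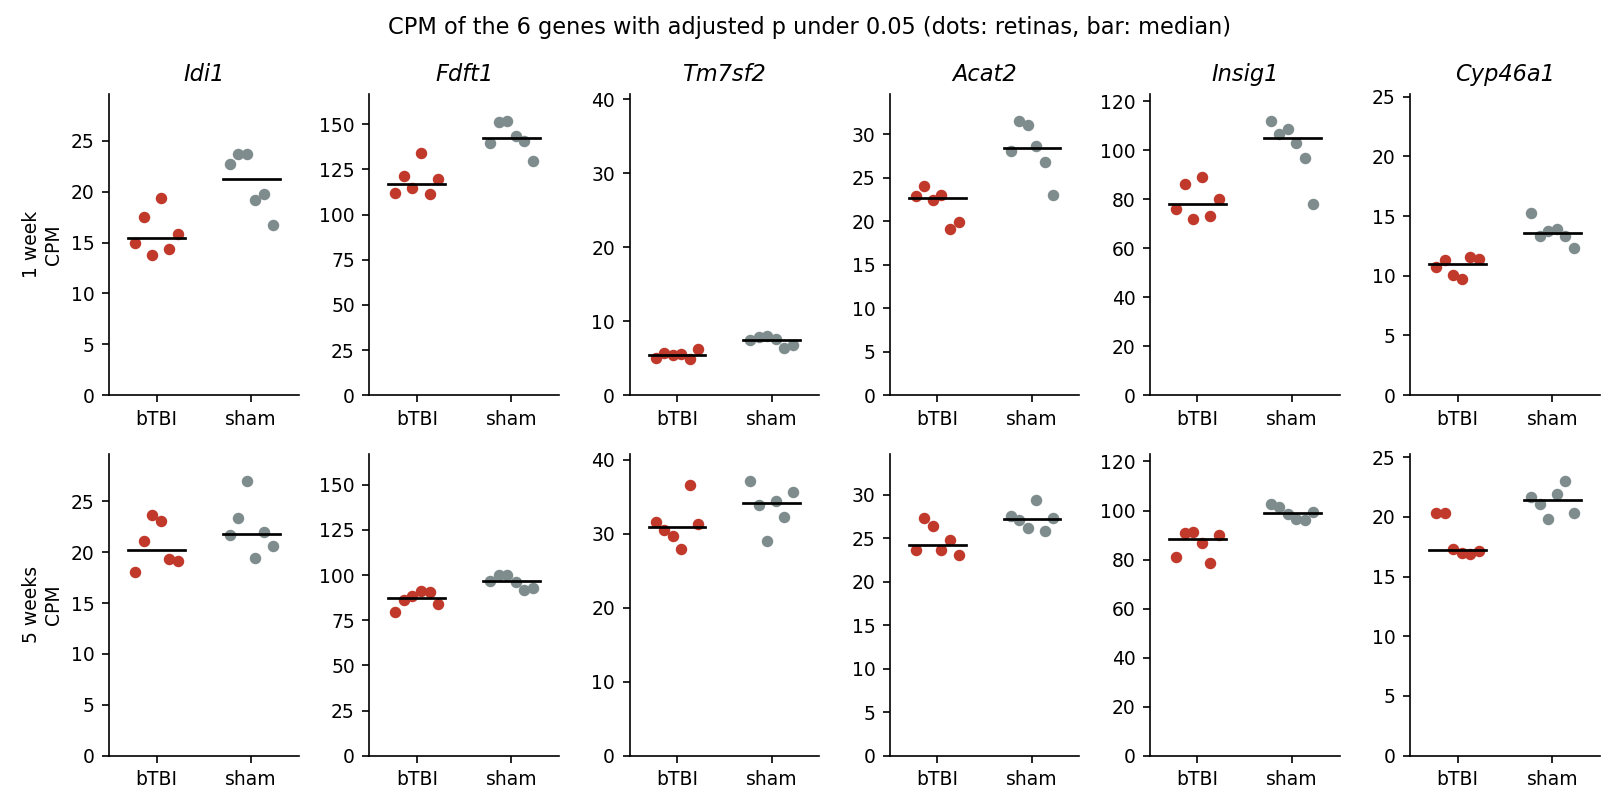
CPM of Idi1, Fdft1, Tm7sf2, Acat2, Insig1 and Cyp46a1 in each retina at 1 week (top) and 5 weeks (bottom), bTBI left of sham, with a dot per retina and a bar for the median of 6. Tm7sf2 and Cyp46a1 at 1 week, and Fdft1 and Insig1 at 5 weeks, have no bTBI retina within the sham range.

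Of the 7 sensing genes 1 passed a threshold. Insig1, which retains SCAP in the endoplasmic reticulum and is itself switched on by SREBP2 (chr5:28071363-28078662), had 71.8 to 88.9 CPM (median 78.0) in bTBI at 1 week and 78.0 to 112 CPM (median 105) in sham. The overlap came from a single low sham retina, replicate 6, without which the adjusted p was 0.00148. The log2 fold change was -0.34 ± 0.08 (SE), adjusted p = 0.0198. Without bTBI replicate 3 or 5, or without sham replicate 2 or 3, the adjusted p lay just above 0.05, at most 0.0551. At 5 weeks Insig1 had 78.5 to 91.3 CPM (median 88.4) in bTBI and 96.0 to 103 CPM (median 99.0) in sham, with no overlap. The difference of -0.20 ± 0.04 (SE) had an adjusted p of 0.00651 and stayed under 0.05 without any single retina, but in the fit of all 24 retinas the adjusted p was 0.201.

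Srebf2, which encodes SREBP2 (chr15:82147181-82205379), had 213 to 255 CPM (median 237) in bTBI and 218 to 271 CPM (median 254) in sham at 1 week. The groups overlapped and the log2 fold change was -0.09 ± 0.06 (SE), adjusted p = 0.496. At 5 weeks it had 166 to 186 CPM (median 173) in bTBI and 175 to 197 CPM (median 189) in sham, with 4 of 6 bTBI retinas below every sham retina and a log2 fold change of -0.11 ± 0.03 (SE), adjusted p = 0.149. Its paralog Srebf1, which directs fatty acid genes, had 0.02 at 1 week and 0.00 at 5 weeks. Scap had 0.00 and -0.01, and Insig2, the second INSIG gene, had -0.03 and -0.06 at those timepoints. The LXR genes Nr1h2 and Nr1h3 had -0.03 and 0.13 at 1 week and -0.04 and -0.08 at 5 weeks, none of them past a threshold.

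In limma 0 of the 4 genes of uptake and transport passed either threshold, and 1 member, Stard4, had an unadjusted p under 0.05 at each timepoint. Stard4 encodes a soluble carrier of sterol between membranes and is a target of SREBP2. It had 20.8 to 35.6 CPM (median 27.7) in bTBI and 31.6 to 38.2 CPM (median 35.3) in sham at 1 week, with 5 of 6 bTBI retinas below every sham retina. The log2 fold change was -0.34 ± 0.10 (SE), adjusted p = 0.0550. Npc1 and Npc2, which hand cholesterol out of the lysosome, had 0.12 each at 1 week and 0.01 and 0.00 at 5 weeks. Lrp1, a large receptor for apolipoprotein E particles, had -0.04 and 0.02.

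Storage, turnover and efflux genes were split. Cyp46a1, the neuronal enzyme that hydroxylates cholesterol for export to the blood (chr12:108334381-108362234), had 9.77 to 11.6 CPM (median 11.0) in bTBI at 1 week and 12.4 to 15.3 CPM (median 13.6) in sham. No bTBI retina reached the sham range, and the log2 fold change was -0.31 ± 0.07 (SE), adjusted p = 0.0114, under 0.05 in all 12 single-retina omissions. At 5 weeks Cyp46a1 had 16.9 to 20.3 CPM (median 17.2) in bTBI and 19.8 to 23.0 CPM (median 21.4) in sham, a log2 fold change of -0.22 ± 0.06 (SE) whose adjusted p of 0.0735 missed both thresholds. Cyp46a1 moved in the direction of the RGC markers, whose sums are given above, and their part in the result was not tested.

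The other 4 genes of this class, Apoe, Abca1, Abcg1 and Soat1, had log2 fold changes above 0 at both timepoints. Apoe, the glial lipid carrier (chr7:19696109-19699188), had 1171 to 1737 CPM (median 1391) in bTBI and 906 to 1492 CPM (median 1128) in sham at 1 week. The ranges overlapped over most of their width, and the log2 fold change of 0.27 ± 0.11 (SE) missed the thresholds (adjusted p = 0.208). At 5 weeks Apoe had 498 to 660 CPM (median 564) in bTBI and 524 to 587 CPM (median 548) in sham, a difference of 0.04 on the log2 scale (adjusted p = 0.878). Abca1, the exporter that loads apolipoproteins (chr4:53030787-53159895), had 35.6 to 54.5 CPM (median 45.7) in bTBI and 27.2 to 57.2 CPM (median 41.0) in sham at 1 week, and 54.5 to 66.4 CPM (median 62.9) in bTBI and 48.1 to 72.4 CPM (median 55.0) in sham at 5 weeks. Its log2 fold change was 0.14 at both timepoints, with adjusted p = 0.699 at 1 week and 0.481 at 5 weeks. At 1 week the value was 0.06 without both lens-rich bTBI retinas and -0.02 when bTBI replicate 3 was left out too. A single high sham retina, replicate 3, bears on the later value, since without it Abca1 was higher in bTBI with an adjusted p of 0.0319. Abcg1, the partner exporter, had 0.11 and 0.08, and Soat1, which esterifies cholesterol for storage, had 0.13 and 0.01, none of them past a threshold.

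**Figure D4:**
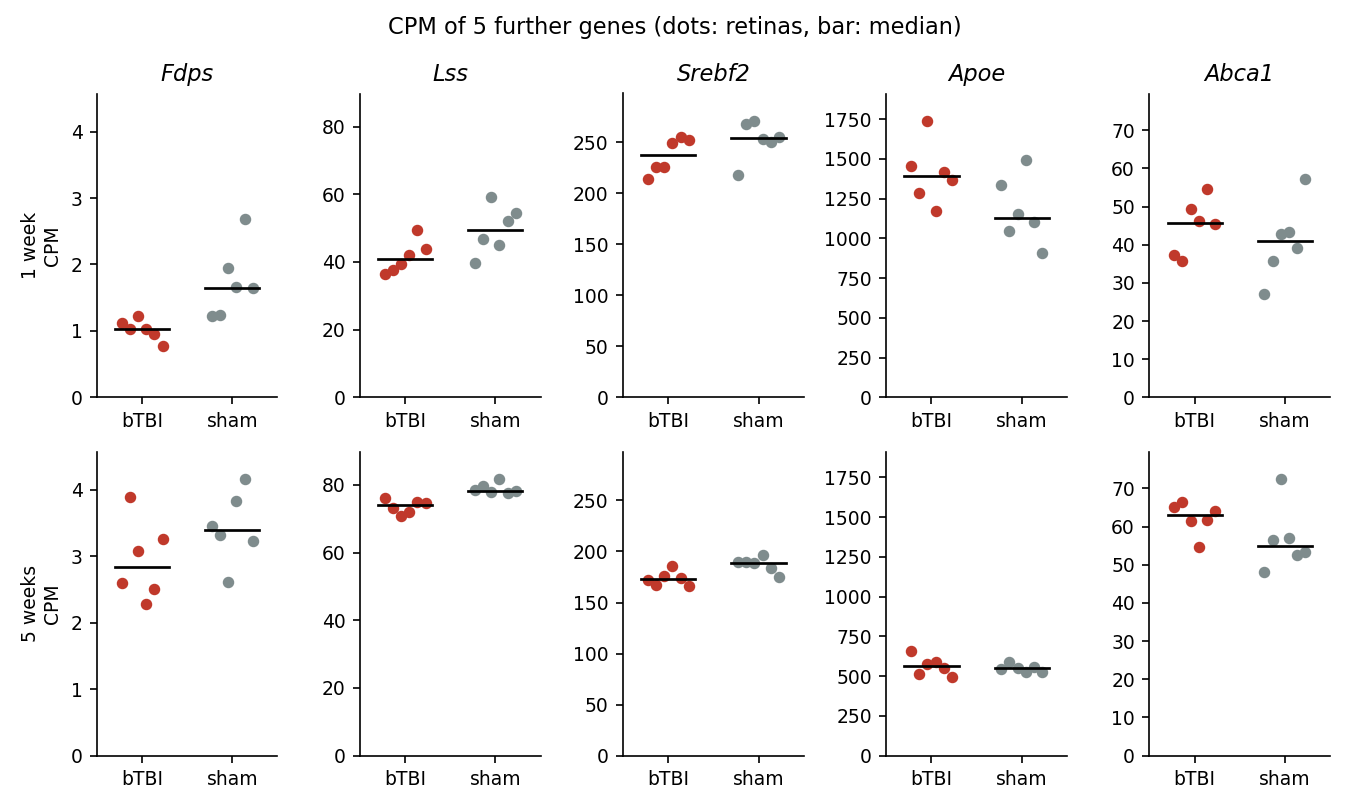
CPM of Fdps, Lss, Srebf2, Apoe and Abca1 in each retina at 1 week (top) and 5 weeks (bottom), bTBI left of sham, with a dot per retina and a bar for the median of 6. Fdps at 1 week and Lss at 5 weeks have no bTBI retina within the sham range, and the ranges of Srebf2, Apoe and Abca1 overlap at both timepoints.

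Most promoter windows of the synthesis genes held a CCAAT box. The genes were chosen by their role in the pathway, and the box was not tested against the bTBI effect. Sequences 250 bases before to 50 bases after the transcription start were taken from RefSeq (GRCm38.p6), where 29 of the 35 genes, 16 of them of synthesis, have at least 1 window, and a gene was counted if any of its windows held the motif. Fdps, Fdft1, Sqle, Stard4, Npc1 and Abcg1 were not searched. Both strands were searched for CCAAT (the box bound by NF-Y), GGGCGG (the box bound by Sp1), CACCCCAC (a core of the sterol regulatory element bound by SREBP) and its relaxed form CACNCCAC, which includes the strict form. CCAAT was present in 15 of the 16 synthesis genes (93.8%) and 7 of the 13 other genes (53.8%), against 42.8% of the 10807 genes with a window among those tested at 1 week and 41.1% of all 27025 genes in the table. GGGCGG was present in 14 of 16 (87.5%) and 10 of 13 (76.9%), against 68.2% of the genes tested at 1 week and 38.2% of all genes. CACCCCAC was present in 2 synthesis genes (12.5%), Hmgcs1 and Acat2, and 0 of the 13 other genes, against 3.8% of the genes tested and 3.3% of all genes. CACNCCAC was present in those 2 and in Insig1, against 7.59% of the genes tested and 7.12% of all genes. A match is a description of the letters and not a bound site.

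The windows of Acat2, Idi1, Tm7sf2, Insig1 and Cyp46a1 are shown because these genes were lower at 1 week at an adjusted p under 0.05, and that of Hmgcs1 because it holds the strict sterol element and 4 CCAAT boxes. Each is printed 5′ to 3′ on the strand of the gene, with the matches in capitals. A match that lies on the opposite strand stands in capitals as its reverse complement, as ATTGG does for the CCAAT box.
Acat2 (chr17:12960676-12960975, minus strand): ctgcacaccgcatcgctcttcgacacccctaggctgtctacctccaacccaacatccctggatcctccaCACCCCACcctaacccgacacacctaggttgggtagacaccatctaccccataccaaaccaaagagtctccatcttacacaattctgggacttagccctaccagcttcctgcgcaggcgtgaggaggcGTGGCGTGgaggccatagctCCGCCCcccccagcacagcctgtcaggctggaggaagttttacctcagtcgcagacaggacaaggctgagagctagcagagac
Hmgcs1 (chr13:119690101-119690400, plus strand): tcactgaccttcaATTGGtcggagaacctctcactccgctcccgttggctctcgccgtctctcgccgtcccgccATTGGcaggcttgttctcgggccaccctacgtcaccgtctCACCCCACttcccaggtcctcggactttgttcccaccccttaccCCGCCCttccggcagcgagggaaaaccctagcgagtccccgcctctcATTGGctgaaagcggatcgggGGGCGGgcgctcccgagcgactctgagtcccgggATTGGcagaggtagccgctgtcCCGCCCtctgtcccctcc
Idi1 (chr13:8885356-8885655, plus strand): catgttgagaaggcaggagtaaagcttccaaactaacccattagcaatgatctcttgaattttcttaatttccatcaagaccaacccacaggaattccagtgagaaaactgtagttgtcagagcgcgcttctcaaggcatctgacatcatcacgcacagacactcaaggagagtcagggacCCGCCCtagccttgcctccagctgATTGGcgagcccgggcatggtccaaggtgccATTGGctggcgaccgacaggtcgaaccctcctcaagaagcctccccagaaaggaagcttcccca
Tm7sf2 (chr19:6067801-6068100, minus strand): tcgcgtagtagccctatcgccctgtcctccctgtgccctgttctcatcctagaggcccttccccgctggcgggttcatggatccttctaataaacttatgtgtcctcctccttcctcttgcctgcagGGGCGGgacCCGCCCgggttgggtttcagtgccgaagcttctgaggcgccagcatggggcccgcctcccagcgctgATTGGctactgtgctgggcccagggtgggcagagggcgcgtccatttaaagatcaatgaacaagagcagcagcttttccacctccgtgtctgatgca
Insig1 (chr5:28071162-28071461, plus strand): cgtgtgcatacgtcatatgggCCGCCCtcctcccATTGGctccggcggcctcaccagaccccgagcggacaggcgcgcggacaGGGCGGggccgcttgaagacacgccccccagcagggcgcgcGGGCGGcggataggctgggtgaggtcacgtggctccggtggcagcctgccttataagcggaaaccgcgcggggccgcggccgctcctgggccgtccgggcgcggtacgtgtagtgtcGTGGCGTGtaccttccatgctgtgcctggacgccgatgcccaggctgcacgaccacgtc
Cyp46a1 (chr12:108334066-108334365, plus strand): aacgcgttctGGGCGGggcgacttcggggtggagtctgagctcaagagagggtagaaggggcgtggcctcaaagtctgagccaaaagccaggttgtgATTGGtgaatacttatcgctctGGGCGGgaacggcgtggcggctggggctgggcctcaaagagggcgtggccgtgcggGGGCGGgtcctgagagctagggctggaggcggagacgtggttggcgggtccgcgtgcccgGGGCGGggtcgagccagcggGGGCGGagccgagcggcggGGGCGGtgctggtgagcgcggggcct

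Positions are counted from the RefSeq start as position 0. Of the windows shown, those of Hmgcs1 and Cyp46a1 have a start whose following bases lie in no GENCODE M21 transcript of the gene. Positions in these windows are therefore less certain. The strict sterol element begins at -136 in Hmgcs1 and at -181 in Acat2, and the relaxed form at -53 in Acat2 and at -9 in Insig1. Boxes of CCAAT begin at -45 and -14 in Idi1, at -47 in Tm7sf2, at -216 in Insig1, at -153 in Cyp46a1 and at -237, -176, -45 and 10 in Hmgcs1. Among the synthesis genes that have a window, Acat2 was the only gene with no CCAAT in any of its windows.

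At 5 weeks the values lay closer to 0. Of the 19 synthesis genes 16 lay below 0, with a median log2 fold change of -0.10 and a range of -0.18 to 0.08, while 8 of the other 16 genes lay below 0 with a median of -0.01. The median over all 15920 genes was 0.00. In limma 0 of the 35 passed an adjusted p of 0.005 (0.835% of all genes did). At an unadjusted p under 0.05, 10 members were lower (28.6%, where 6.95% of all genes were). Only 1 of the 35, Abcg1, was higher, where 3.97% of all genes were. At an adjusted p under 0.05, 2 of the 35 (5.71%), Fdft1 and Insig1, were lower, where 1.93% of all genes were, and 0 were higher, where 0.113% of all genes were. The bTBI and sham ranges did not overlap, with bTBI lower, for 3 members at each timepoint (8.57%), where 2.25% of all genes did so at 1 week and 1.75% at 5 weeks. At 1 week these were Fdps, Tm7sf2 and Cyp46a1, and at 5 weeks Fdft1, Lss and Insig1.

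Across the timepoints 16 of the 19 synthesis genes lay below 0 at both, 2 (Pmvk and Ebp) lay above 0 at both and 1 (Ggps1) changed side. The size was smaller at 5 weeks for 15 of the 19, and likewise for 12 of the other 16 genes, so this was not particular to synthesis. The share over all genes was not taken. The difference between the timepoints was tested directly for each gene in a fit of all 24 retinas over 14455 genes. None of the 35 members passed an adjusted p of 0.005 (0.104% of all genes did) or of 0.05 (0.768% did) in limma. An unadjusted p under 0.05 was found for 4 members, Idi1, Cyp51, Tm7sf2 and Acat2. The share of all genes at that unadjusted p was not taken, so the 4 are not read as a result. Tm7sf2 had the smallest adjusted p, 0.390, with a difference of 0.26 ± 0.10 (SE), 5 weeks minus 1 week. For Fdft1 the difference was 0.11 ± 0.07 (SE) and for Insig1 0.14 ± 0.09 (SE), so that their effects were not distinguishable in size between the timepoints at this spread.

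The 1-week comparison was then repeated without the bTBI retinas richest in lens and oligodendrocyte markers. Without both lens-rich retinas 4 members (where 1.5% of all genes, against 3.06% with all retinas) were lower at an adjusted p under 0.05, namely Fdft1 (log2 fold change -0.24, adjusted p = 0.0455), Tm7sf2 (-0.38, adjusted p = 0.0351), Cyp46a1 (-0.36, adjusted p = 0.0238) and Nsdhl (-0.39, adjusted p = 0.0294). Idi1 (-0.34, adjusted p = 0.142), Acat2 (-0.27, adjusted p = 0.101) and Insig1 (-0.31, adjusted p = 0.0938) no longer passed. With replicate 3 left out as well, a setting added after the data were seen, 3 bTBI retinas remained and 0 members passed in either direction in limma, where 0.684% of all genes were lower, while the median of the 19 synthesis genes was -0.17, against -0.19 with all retinas.

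Per kilobase of annotated exon, levels of different genes can be set side by side only roughly. All annotated exons of a gene are counted, which can far exceed its longest coding transcript (4208 against 1382 bases for Fdps). On this measure Apoe stood far above the rest in sham retinas, at 549 CPM per kb at 1 week and 257 CPM per kb at 5 weeks. The next at 1 week were Srebf2 (35.1), Fdft1 (33.8) and Insig1 (32.6), and at 5 weeks Insig1 (32.1) and Srebf1 (31.6). The median member had 10.8 CPM per kb at 1 week and 11.1 at 5 weeks, and Fdps was lowest with 0.412 and 0.816.

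Genes of neighbouring pathways were read on 3 lists against the same shares of all genes. Of 10 fatty acid and acetyl-CoA genes that SREBP also controls, 1 was lower in bTBI at an adjusted p under 0.05 at 1 week, Elovl6, a fatty acid elongase, with 51.6 to 76.9 CPM (median 60.8) in bTBI and 66.2 to 85.8 CPM (median 80.9) in sham (log2 fold change -0.35 ± 0.09, SE, adjusted p = 0.0332). At an unadjusted p under 0.05, 2 of the 10 were lower at 1 week, where 8.93% of all genes were, and 3 of the 10 at 5 weeks, where 6.95% of all genes were. Of 7 further genes of sterol sensing and degradation 0 passed in limma, and 0 had an unadjusted p under 0.05. Of 16 measured genes of sterol handling 1 was higher at 1 week, Clu, which encodes the glial lipid carrier clusterin, with 1974 to 2660 CPM (median 2214) in bTBI and 1373 to 1965 CPM (median 1648) in sham, ranges that did not overlap (log2 fold change 0.41 ± 0.09, SE, adjusted p = 0.0133). At an unadjusted p under 0.05, 2 of the 16, Clu and Apod, were higher at 1 week, where 8.32% of all genes were. Apod varied widely, with 2.64 to 229 CPM (median 8.14) in bTBI and 1.22 to 4.96 CPM (median 2.06) in sham (adjusted p = 0.112 in limma). At 5 weeks these lists had 0 genes at an adjusted p under 0.05 in limma, and at an unadjusted p under 0.05 they had only those 3 of the fatty acid list. At that time Clu had 747 to 881 CPM (median 841) in bTBI and 777 to 858 CPM (median 823) in sham. Without both lens-rich retinas the adjusted p at 1 week was 0.178 for Elovl6 and 0.0759 for Clu. Microglial and reactive macroglial markers were higher at 1 week as given above, and their part in the values of Clu and Apoe was not tested.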

How the data were processed

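RNA of 24 whole retinas was sequenced from stranded polyA libraries, 6 bTBI and 6 sham retinas at each timepoint. The authors used STAR to map the reads to GRCm38 (mm10), featureCounts to assign them to genes and edgeR to compare groups. The deposited signal values are those counts scaled to CPM by an effective library size, with genes of low counts already removed, and genes whose reads were mostly discarded or shared cannot be recovered from them. Raw counts were not analysed here. Symbols were matched for 14907 of 14922 genes at 1 week and 15902 of 15920 at 5 weeks.

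Values were compared as log2(CPM + 1) in limma 3.58.1 (R 4.3.3), each timepoint alone, with a trended prior (trend=TRUE), two-sided, and Benjamini-Hochberg adjustment over all genes. The test was tried on simulated data with known fold changes and noise drawn separately for each gene. Recovery was required only for changes larger than any member showed, so the trial does not speak for effects of the members' size. The members, the lists and the genes described in full (each member with an adjusted p under 0.05 or ranges that do not overlap at either timepoint, and Srebf2, Apoe and Abca1) were chosen with earlier results of these data known, so no test over the list was made. P-values judge the difference between groups against the spread between retinas, with the variance of each gene moderated by that prior. Depth was taken from the step between values in each retina, to within 0.01 of a step, and no read total was at hand to check it. Shared stretches of transcripts (97% identity, at least 75 bases) were found with BLAST+ 2.17.0 among GENCODE M21 transcripts. The alternatives were scaling by median of ratios or by the sum of the values, a minimum of 1 CPM in 6 retinas, a pseudocount of 0.1, a robust prior, a prior without trend, a fit of all 24 retinas, a block for the replicate number, and retinas left out.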

Additional observations from a re-analysis of the deposited data

Results flagged for a closer look

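In 6 of 140 groups of 6 retinas, a group being 1 member gene in 1 arm at 1 timepoint, 1 retina lay far from the other 5. Chance sets apart about 1 in 20 groups, so a number of this size can come from chance. Srebf1 had 221 CPM in bTBI replicate 1 at 5 weeks, where the other bTBI retinas had 158 to 178 CPM, and 140 CPM in sham replicate 3 at 5 weeks, where the other sham retinas had 178 to 200 CPM. Srebf2 had 218 CPM in sham replicate 1 at 1 week, against 250 to 271 CPM in the others. Nr1h2 had 76.4 CPM in sham replicate 4 at 1 week, against 66.7 to 70.2 CPM. Cyp51 had 68.2 CPM in sham replicate 3 at 5 weeks, against 54.6 to 57.8 CPM, and Sc5d had 55.0 CPM in sham replicate 4 at 5 weeks, against 62.6 to 65.1 CPM.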

How the results depend on the processing

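The median of the 19 synthesis genes stayed below 0 in every setting run, and without single retinas it ranged over -0.22 to -0.16 (1 week) and -0.10 to -0.07 (5 weeks). The number of members at an adjusted p under 0.005 was 0 at both timepoints, but 6 at 1 week in 1 fit of all 24 retinas and 1 at 5 weeks with a robust prior, and a threshold of 0.05 gives 6 and 2. Leaving out single retinas gave 0 to 3 such members at 1 week (1, Fdft1, without bTBI replicate 4, and 3, Fdft1, Acat2 and Insig1, without sham replicate 6). The number lower at an adjusted p under 0.05 at 1 week, 6, was 13 in the fit of all 24 retinas and 0 without bTBI replicates 3, 5 and 6 (chosen after seeing the data), and 4 to 9 without single retinas. Over all genes the share lower was 3.06%, 5.47% in the fit of all 24 retinas and 0.684% without those 3 retinas, and the share under 0.005 was 2.25%, 4.74% and 0.0536%. At 5 weeks this number, 2, was 1 with median-of-ratios scaling, 1 with a prior without trend, 0 in the fit of all 24 retinas, and 1 to 3 without single retinas (1 without bTBI replicate 3 or 6 or sham replicate 1, 2, 3 or 4). The number higher at 5 weeks was 0 to 1 without single retinas. No direction of a gene at an adjusted p under 0.05 turned in any setting. The cause of these changes was not tested, except that the omissions leave fewer retinas.

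No clear pairing of the retinas by replicate number was seen, though 6 numbers per timepoint cannot exclude one. Same-numbered bTBI and sham retinas correlated between -0.25 and 0.54 at 1 week and between -0.11 and 0.15 at 5 weeks, and 1 of 6 correlated best with its own number at each timepoint. With the replicate number as a block, 0 members passed 0.005 at either timepoint, and 1 was lower at an adjusted p under 0.05 at 5 weeks. The test of the difference between the timepoints gave 0 members in every setting run. The edgeR test was not run, since reads inferred from the steps of the values could not be checked, and depth was not a limit that could be measured apart from the spread between retinas.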
